A study of Mus musculus with 4 samples.

Results

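Toll-like receptors and the inflammasome were followed through 9 genes in mouse fracture callus, *Tlr2*, *Tlr4*, *Cd14*, *Myd88*, *Nlrp3*, *Pycard*, *Casp1*, *Casp4* and *Gsdmd*. They were chosen by name from the 32285 genes of the count tables, for their place in the pathway, and all 9 were found. Earlier results of these data were known when they were chosen. Single-cell RNA sequencing (scRNA-seq) had been run on 4 libraries, control_4d, control_7d, RA_4d and RA_7d, where 4d and 7d stand for 4 and 7 days post fracture (dpf). All mice were wild-type C57BL/6J and 3 months old, and per the study's methods they were male and had a fracture of the right tibia. The RA mice were injected intraperitoneally with K/BxN serum, which transfers antibody-driven arthritis to a normal recipient, on 0 and 3 dpf. The study's protocol then continued with an injection every 5 days. Counted from 3 dpf, the next would fall after the last library was taken at 7 dpf. The control mice were given the vehicle. Each library was 1 pool of calluses (n = 4 in the labels, n = 3 in the methods), scraped along the periosteal surface and digested with collagenase. With 1 library per condition no test between RA and control was possible, and the condition cannot be told apart from the pool, the preparation and the sequencing of its library.

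TLR2 and TLR4 are cell-surface receptors that recognise bacterial lipoproteins and lipopolysaccharide, and also molecules that leak from damaged tissue. CD14 hands lipid ligands to them and MYD88 carries the signal from their cytoplasmic tails to the kinases that switch on NF-κB. NLRP3 is a cytosolic sensor that assembles with the adaptor ASC (*Pycard*) and caspase-1 (*Casp1*), which matures IL-1β and IL-18 and cleaves gasdermin D (*Gsdmd*) into a membrane pore, while caspase-11 (*Casp4*) cleaves the same pore protein after binding lipopolysaccharide in the cytosol. In bone repair, macrophages, neutrophils and osteoclast precursors are the cells best known for this machinery.

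In the mouse genome (GRCm38, GENCODE M21 gene models) the receptor genes lie apart, *Tlr2* at chr3:83836272-83841767 on the minus strand and *Tlr4* at chr4:66827584-66930284 on the plus strand. *Casp1* (chr9:5298517-5307265) and *Casp4* (chr9:5308828-5336783) are neighbours on the plus strand of 1 chromosome. *Myd88* is on the minus strand of that chromosome (chr9:119335934-119341411) and overlaps *Slc22a14* on the same strand and *Acaa1a* on the other, so its count is less certain than the rest. Other positions are chr11:59541568-59566956 for *Nlrp3* (plus), chr7:127989708-127993867 for *Pycard* (minus) and chr15:75862327-75867408 for *Gsdmd* (plus). The RefSeq promoter table (GRCm38.p6) held 6 of the 9 genes, all but *Tlr4*, *Cd14* and *Gsdmd*. *Tlr2*, *Casp1* and *Casp4* are 3 of the 4 genes whose level in mesenchymal cells was more than 1.5 times higher in RA_7d than in control_7d, so their upstream sequence is shown here, 5′ to 3′ on the gene's own strand and only as far as no annotated transcript begins. Capitals mark matches to the κB motif, the site that NF-κB binds, searched on both strands. Of all 32851 promoters in the table, 8.46% held a match in their 300-base window.
*Tlr2*, chr3:83841768-83841858, minus strand: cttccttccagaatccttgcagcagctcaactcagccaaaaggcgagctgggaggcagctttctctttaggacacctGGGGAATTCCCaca
*Casp1*, chr9:5298267-5298516, plus strand: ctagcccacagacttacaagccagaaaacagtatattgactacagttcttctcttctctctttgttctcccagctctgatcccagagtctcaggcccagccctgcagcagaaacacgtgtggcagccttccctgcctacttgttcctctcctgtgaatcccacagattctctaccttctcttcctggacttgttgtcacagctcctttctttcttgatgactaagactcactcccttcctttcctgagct
*Casp4*, chr9:5308599-5308827, plus strand: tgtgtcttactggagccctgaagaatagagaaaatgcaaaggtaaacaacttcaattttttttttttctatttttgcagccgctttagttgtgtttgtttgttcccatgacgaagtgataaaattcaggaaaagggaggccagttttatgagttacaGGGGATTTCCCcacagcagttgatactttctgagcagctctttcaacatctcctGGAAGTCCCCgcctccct
Counted from the RefSeq start, the capitals of *Tlr2* lie at -173 to -163 and are a pair of overlapping matches. A further *Tlr2* match lies at -8 to 1, in the 300-base window but outside the stretch shown. *Casp4* has 2 start sites. From the first, used for the stretch shown, it has an overlapping pair at -93 to -83 and a further match at -39 to -30. From the second, the same matches lie at -104 to -94 and at -50 to -41. The *Casp1* stretch held no match to κB. It held none either to the core of the interferon-stimulated response element, to GAGGAAGT, to TGANTCA or to TGACGTCA, each searched on both strands and found in 3.44%, 3.2%, 7.81% and 1.79% of promoters. *Nlrp3*, which was not called in mesenchymal cells, has a κB match at -186 to -177 of 1 of its 2 start sites, while no κB match lay in the windows of *Myd88* and *Pycard*. A match of letters is not a measured binding site. Binding was not analysed here.

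After the study's filter (4000 to 50000 unique molecular identifiers, 2000 to 7000 genes and at most 8% mitochondrial counts per barcode), 5470, 7676, 4110 and 8223 cells remained in control_4d, control_7d, RA_4d and RA_7d, with 108438906, 141714572, 83405494 and 156567619 UMIs. A UMI marks 1 captured molecule. Pairs of libraries shared 5 to 15 cell barcodes. Cells were clustered without the 9 genes and without a wider list of 51 pathway genes, so that no class was built on them, and the 20 clusters were named from markers into 15 classes, here called macrophage-like, endothelial-like and so on. The comparison used 3 groups of classes, 7857 monocyte and macrophage cells, 9141 mesenchymal cells (fibroblast-like, fibroblast precursor-like, osteochondral-like and tenocyte-like) and 3132 endothelial cells. In these groups *C1qa* was at 2177 CPM in monocyte and macrophage cells, 37.6 in mesenchymal and 55.7 in endothelial cells, *Col1a1* at 130.03, 14418 and 523, and *Pecam1* at 25.3, 23.2 and 1166. *C1qa* and *Pecam1* were among the markers used for naming, so their levels describe the groups and do not check the names. *Col1a1* was not among those markers. The monocyte-like cells were led by *Retnla*, *Ccr2* and MHC class II genes, and the dendritic-like cells by *Ifitm1*, *Ccr7* and *Il1b*. In the dendritic-like cells mast cell markers came next, with a mean log2 level over all other cells of 1.75 against 2.63. Whether this class also holds mast cells or basophils was not tested. In both clusters of the osteochondral-like class, markers of committed mesenchymal progenitors came next, at 1.81 against 3.27 and, in the cycling cluster, 0.774 against 1.42. No cluster took the progenitor name. Whether the osteochondral-like class also holds such progenitors was not tested. CPM is the usual scaling of counts to a common library total, here of a gene's UMIs summed over the cells of a class in a library by all UMIs of those cells. Brackets give the exact 95% interval, which covers counting error only and not the difference between mice.

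*Tlr2* and *Cd14* were highest in blood-derived classes, while *Tlr4* was found in stromal and vascular classes as well. Blood-derived is used here for the monocyte-like, macrophage-like, osteoclast-like, neutrophil-like, dendritic-like and T and NK-like classes. The origin of these cells was not measured. *Tlr2* was a gene of the monocyte-like and macrophage-like cells, at 171 CPM (164 to 178) and 148 CPM (145 to 150.03) over all libraries. Dendritic-like (58.4 CPM, 54.2 to 62.9) and neutrophil-like cells (57.7 CPM, 53.5 to 62.2) followed at levels whose intervals overlapped, then osteoclast-like cells at 36.2 CPM (33.8 to 38.7). Every other class lay below them, from 19.1 CPM (17.1 to 21.2) in tenocyte-like to 4.13 CPM (3.2 to 5.26) in muscle-like cells. In macrophage-like cells *Tlr2* was at 149 CPM in control_4d and 132 in RA_4d, then 156 in control_7d and 152 in RA_7d, a narrow range with RA_4d lowest. *Cd14* (chr18:36725067-36726798, minus strand), whose product also exists as a soluble form, was also led by the monocyte-like and macrophage-like cells, with 486 CPM (475 to 498) in monocyte-like, 301 CPM (297 to 304) in macrophage-like cells and 142 CPM (135 to 149) in neutrophil-like cells next. The intervals of these 3 levels did not overlap. The lowest *Cd14* levels, 7.86 to 9.99 CPM, were those of the 4 mesenchymal classes, the muscle-like and the smooth muscle and pericyte-like cells, and each overlapped its neighbours in the order.

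For *Tlr4*, macrophage-like cells led with 60.2 CPM (58.6 to 61.8), and monocyte-like (43 CPM, 39.7 to 46.6) and endothelial-like cells (42.1 CPM, 40.4 to 43.8) did not differ beyond their intervals. Fibroblast-like (36.8 CPM, 35.3 to 38.3), neutrophil-like (35.8 CPM, 32.5 to 39.4) and fibroblast precursor-like cells (34.5 CPM, 33 to 36) formed the next step, again with overlap. Among the cells with little *Tlr4* were the dendritic-like ones at 7.81 CPM (6.31 to 9.55) and the lymphatic endothelial-like ones at 2.21 CPM (1.06 to 4.06). The last class had no *Tlr4* UMI in control_4d and in RA_4d, where a count of 0 allows up to 6.97 and 4.65 CPM. The endothelial-like class thus ranked near the top for *Tlr4* and the lymphatic one last, while their *Cd14* levels, 22.5 CPM (21.3 to 23.8) and 24.5 CPM (20.2 to 29.5), overlapped.

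**Figure D1:**
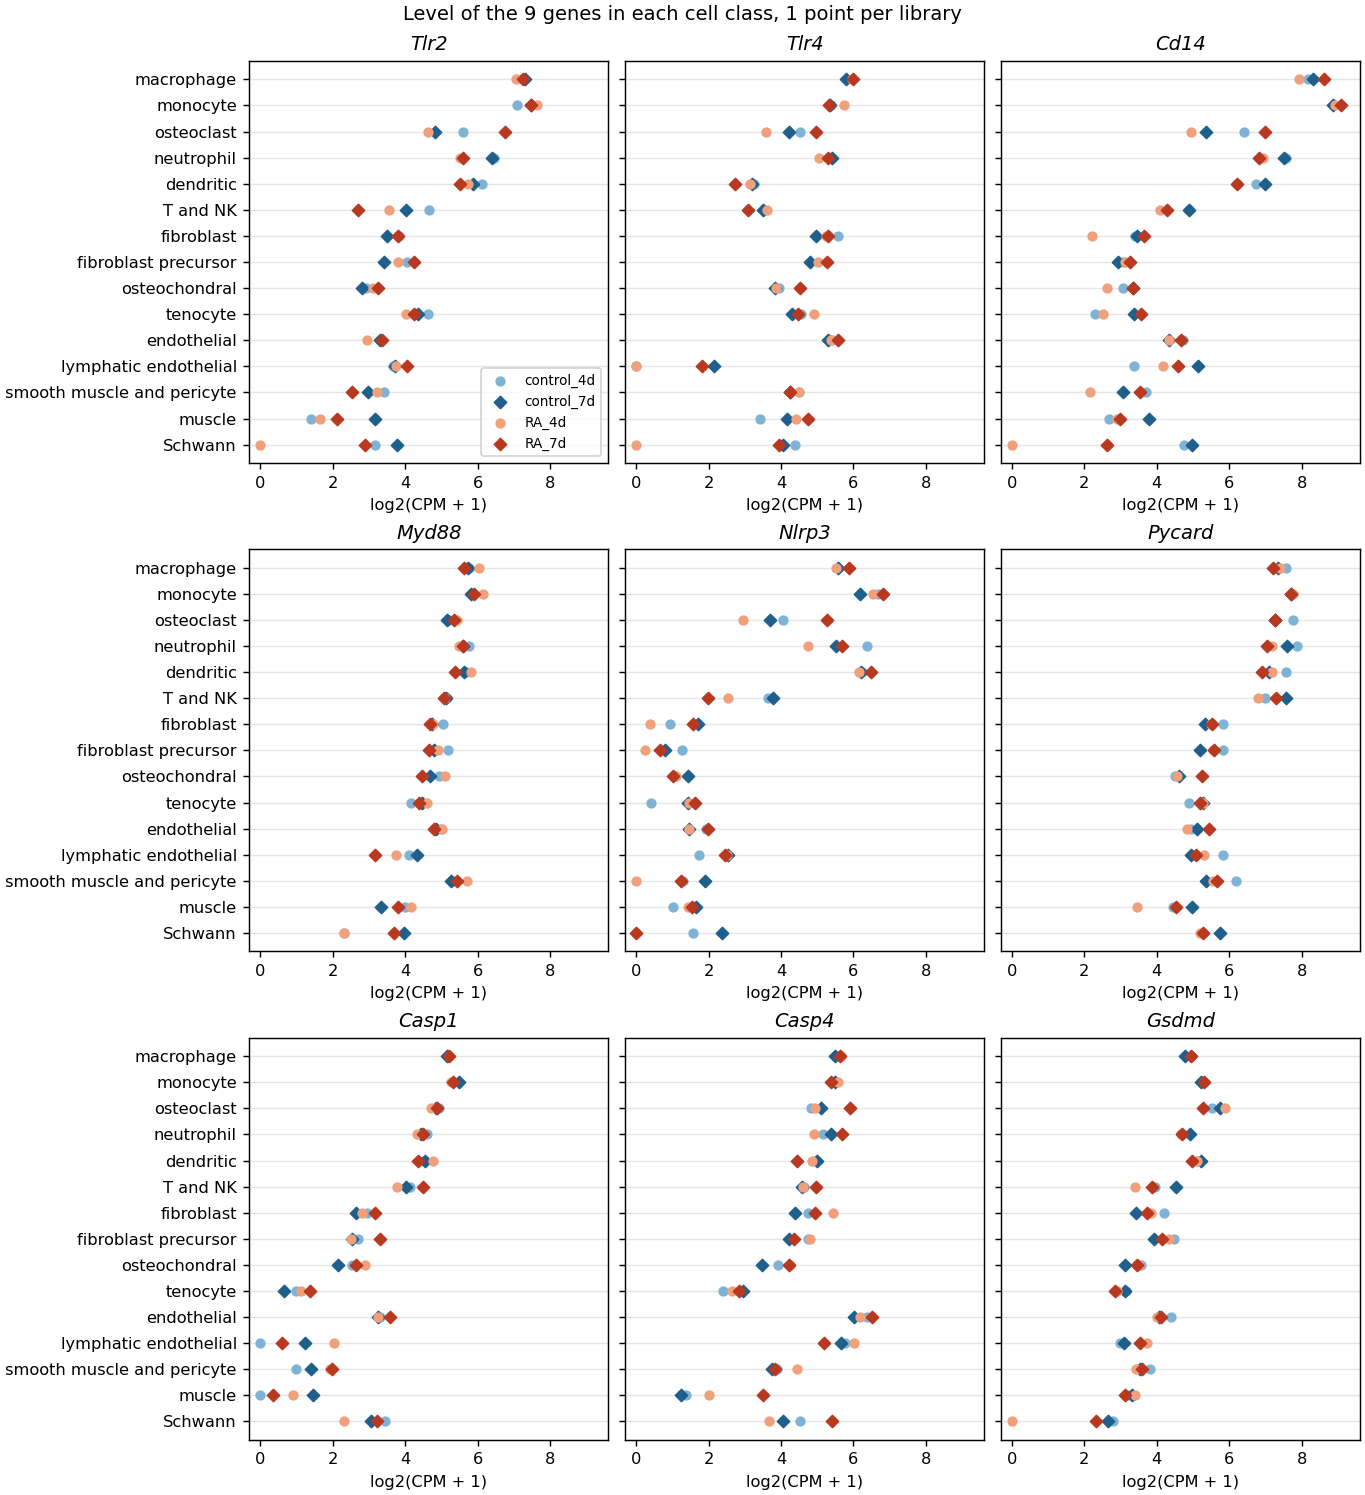
Level of each of the 9 genes in the 15 marker-named classes, as log2(CPM + 1) on the horizontal axis, with 1 point per library (circles 4 dpf, diamonds 7 dpf, blue control, red RA). *Tlr2*, *Cd14* and *Nlrp3* stand high in the upper rows only, *Tlr4* and *Myd88* reach most rows, and *Casp4* is highest in the endothelial row.

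*Myd88*, the adaptor shared by nearly all Toll-like receptors and by the IL-1 receptor, was found in every class. It went from 59.7 CPM (55.8 to 63.9) in monocyte-like cells through 41.7 CPM (38.3 to 45.4) in smooth muscle and pericyte-like and 28.9 CPM (27.5 to 30.3) in endothelial-like cells to 11.1 CPM (8.16 to 14.8) in Schwann-like cells, and the first 11 classes overlapped with their neighbours throughout. In macrophage-like cells it was at 52.8 CPM in control_4d and 65.2 in RA_4d, then 52 in control_7d and 48.1 in RA_7d, with RA_4d above the others.

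The sensor *Nlrp3* was a gene of 4 blood-derived classes. Monocyte-like (92.3 CPM, 87.4 to 97.5), dendritic-like (75.1 CPM, 70.3 to 80.1), macrophage-like (48 CPM, 46.6 to 49.4) and neutrophil-like cells (40.05 CPM, 36.5 to 43.8) did not overlap, osteoclast-like cells had 12.1 CPM (10.7 to 13.6), and the 4 mesenchymal classes had 0.703 to 1.75 CPM. Dendritic-like cells thus ranked second for *Nlrp3* while they ranked next to last for *Tlr4*. The adaptor *Pycard* reached all blood-derived classes at similar levels. It was highest in monocyte-like cells (211 CPM, 204 to 219), and osteoclast-like, macrophage-like, neutrophil-like, dendritic-like and T and NK-like cells, from 178 CPM (173 to 184) down to 145 CPM (135 to 154), overlapped from one to the next. All other classes were at 50.2 CPM or less. T and NK-like cells thus held much *Pycard*, with *Nlrp3* at 6.73 CPM (4.89 to 9.03).

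The caspases that cut gasdermin D were led by different classes. *Casp1* followed the monocyte and macrophage order, with 40.1 CPM (36.8 to 43.5) in monocyte-like, 35.3 CPM (34.1 to 36.5) in macrophage-like and 27.6 CPM (25.5 to 29.8) in osteoclast-like cells. Its lowest levels were in tenocyte-like (1.13 CPM, 0.689 to 1.74), lymphatic endothelial-like (1.1 CPM, 0.358 to 2.58) and muscle-like cells (0.751 CPM, 0.388 to 1.31). *Casp4*, next to it in the genome, was led by endothelial-like cells at 78 CPM (75.7 to 80.4), above macrophage-like (47.5 CPM, 46.1 to 48.9), lymphatic endothelial-like (45.5 CPM, 39.5 to 52.1) and monocyte-like cells (44.2 CPM, 40.8 to 47.8), which overlapped. Within the endothelial-like class, *Casp4* in the cluster led by *Selp* and *Lrg1* was at 134 CPM in control_4d and 104 in RA_4d, then 98.5 in control_7d and 133 in RA_7d. In the cluster led by *Gpihbp1* and *Cldn5* it was at 44.9 CPM in control_4d and 44 in RA_4d, then 43.1 in control_7d and 45.9 in RA_7d. *Selp* encodes P-selectin, a leukocyte adhesion molecule of venular endothelium, and *Gpihbp1* is a capillary gene. The first cluster was higher in all 4 libraries. Among macrophage-like cells, *Casp4* was at 82.5 CPM in control_4d and 68.5 in RA_4d, then 75.9 in control_7d and 60.4 in RA_7d in the cluster led by *Ccl8* and *Cbr2*. In the one led by *Mmp12* and *Arg1* it was at 26.8 CPM in control_4d and 34.5 in RA_4d, then 31.2 in control_7d and 33 in RA_7d. Again the order was the same in every library.

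*Gsdmd*, the substrate of both caspases, was highest in osteoclast-like cells, at 51.2 CPM (48.4 to 54.2), before monocyte-like (37.9 CPM, 34.8 to 41.3) and dendritic-like cells (33.6 CPM, 30.4 to 37). By library the osteoclast-like level was 45.1 CPM in control_4d and 58.1 in RA_4d, then 52.5 in control_7d and 38 in RA_7d, and the last value came from 27 cells. Osteoclast-like cells exceeded macrophage-like cells in each library, where *Gsdmd* was at 29.6 CPM in control_4d and 29.6 in RA_4d, then 26.3 in control_7d and 29.9 in RA_7d. Schwann-like cells had the least, 4.25 CPM (2.52 to 6.72).

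Shares of cells with a UMI gave the same picture when each cell was thinned at random to 4000 UMIs. *Tlr2* was seen in 41% (39.8 to 42.2) of macrophage-like cells and in 0.954% (0.437 to 1.8) of muscle-like cells, which are not known for it, and without thinning in 70.9% and 3.5% at median depths of 12542 and 13545 UMIs. *Cd14* was seen in 65.7% (62.9 to 68.5) of monocyte-like cells, against 3.05% (1.92 to 4.58) of T and NK-like cells (unthinned 82% and 5.12%, median depths 11052 and 7510). *Tlr4* was seen in 14.7% (13.4 to 16.1) of fibroblast-like and 14.6% (13.4 to 15.9) of endothelial-like cells, against 0.643% (0.078 to 2.3) of lymphatic endothelial-like cells. Without thinning these were 49%, 44.6% and 3.22%, at median depths of 21742, 16136 and 12943. *Nlrp3* was seen in 25.2% (22.7 to 27.8) of monocyte-like cells, but in 0.621% (0.362 to 0.992) of fibroblast-like cells, no more than the 0.636% (0.234 to 1.38) of muscle-like cells (unthinned 50.3%, 2.52% and 2.01%). *Casp4* was seen in 23% (21.6 to 24.5) of endothelial-like cells and 1.27% (0.659 to 2.21) of muscle-like cells (unthinned 54.6% and 4.24%).

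Free RNA in the droplets can add macrophage counts to any cell. Each gene was therefore set beside 8 genes of blood-derived cells (*Tyrobp*, *Fcer1g*, *Lyz2*, *C1qa*, *C1qb*, *Laptm5*, *Ptprc* and *Cd52*), here called the free RNA reference. Empty droplets were not analysed. Cells called doublets were kept, so counts of the 8 genes may come from doublets as well as from free RNA. In mesenchymal cells these 8 genes reached 0.967% to 2.29% of their monocyte and macrophage CPM in the same library, with medians of 1.46%, 2.08%, 1.39% and 1.58% in control_4d, control_7d, RA_4d and RA_7d. *Nlrp3* (1.46 to 3.23%) and *Cd14* (1.92 to 2.61%) lay in or next to that range, so their mesenchymal counts are not read as expression. Within each library *Cd14* was above the highest of the 8 genes. It was at 2.44%, 2.61%, 1.92% and 2.34% in control_4d, control_7d, RA_4d and RA_7d, against 1.73%, 2.29%, 1.79% and 1.69%. Much of the counts of *Nlrp3* and *Cd14* lay in cells called doublets in RA_7d, as given with the mesenchymal ratios. The source of these counts was not tested. *Tlr2* (5.37 to 8.59%), *Casp1* (10.9 to 18.8%) and *Pycard* (17.8 to 26.9%) stood above it in every library. *Casp4* (30.9 to 52.6%), *Gsdmd* (34 to 49.7%), *Tlr4* (38.1 to 54.2%) and *Myd88* (44.9 to 57.4%) stood further above. In endothelial cells the 8 genes reached 1.12% to 4.82%, *Nlrp3* 3.41 to 5.36% and *Tlr2* 4.76 to 5.99%, close to that range, whereas *Cd14* (5.66 to 8.3%) and the other 6 genes were above it. Endothelial *Tlr2* was above the highest of the 8 genes within each library. Cells called doublets held much of the endothelial UMIs of *Cd14* and *Tlr2*. In control_4d, control_7d, RA_4d and RA_7d they held 43.6%, 35.6%, 28.1% and 44.3% for *Cd14*, and 43.4%, 48.8%, 26.1% and 35.3% for *Tlr2*. Without them *Cd14* was at 15.5, 13.7, 14.6 and 15.4 CPM and *Tlr2* at 5.36, 4.99, 5.27 and 6.85 CPM. The source of these endothelial counts was not tested.

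**Figure D2:**
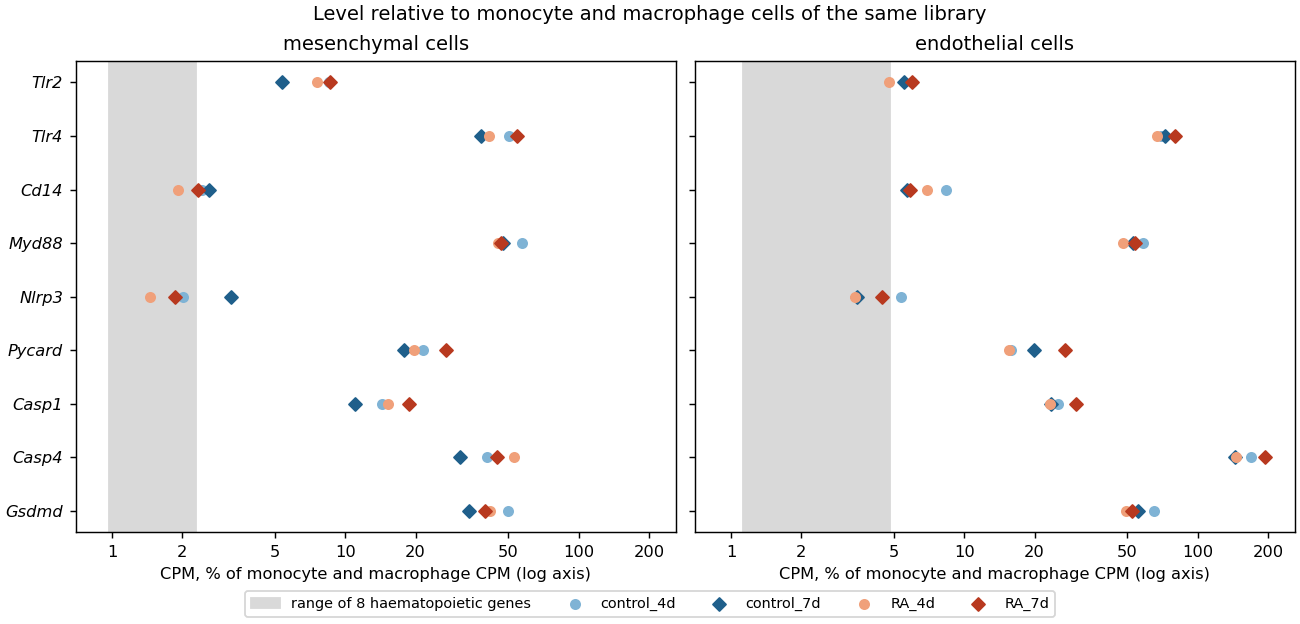
CPM of each gene in mesenchymal (left) and endothelial cells (right) as a percentage of its CPM in monocyte and macrophage cells of the same library, on a log axis, with 1 point per library. The grey band is the range of the 8 genes of blood-derived cells over the 4 libraries; *Nlrp3* and *Cd14* sit in or beside it in mesenchymal cells, and *Casp4* lies past 100% in endothelial cells.

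The question of the design was how these genes differ between RA and control callus at each time point. A gene was called higher or lower when log2((RA CPM + 1)/(control CPM + 1)) was at least log2 of 1.5 in size, among genes with at least 50 UMIs in both libraries together. This is a rule of size and not a test. In monocyte and macrophage cells none of the 9 genes reached 1.5-fold at 4 or 7 dpf. Over all genes tested in these cells, 1.33% were called higher and 2.74% lower in RA at 4 dpf, and 3.28% higher and 1.67% lower at 7 dpf. The median log2 ratio of the 9 genes was 0.01 at 4 dpf and 0.10 at 7 dpf, beside 0.01 for all genes at both.

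Below that size, the ratios farthest from 1 in monocyte and macrophage cells were those of the co-receptor, the adaptor and the sensor. *Cd14* was at 309 CPM (303 to 315) in control_4d and 277 CPM (270.2 to 284) in RA_4d, then 339 CPM (332 to 346) in control_7d and 417 CPM (407 to 427) in RA_7d, so that RA_7d was highest and RA_4d lowest. RA over control gave a ratio of 0.896 (0.869 to 0.923) at 4 dpf and 1.23 (1.19 to 1.27) at 7 dpf. *Nlrp3* was at 52.5 CPM (50.2 to 54.8) in control_4d and 51.5 CPM (48.7 to 54.5) in RA_4d, then 50.5 CPM (47.8 to 53.3) in control_7d and 66.6 CPM (62.8 to 70.7) in RA_7d, with RA_7d above the other 3, which overlapped. Its ratio was 0.981 (0.913 to 1.05) at 4 dpf and 1.32 (1.22 to 1.43) at 7 dpf. *Myd88* was at 53.1 CPM (50.9 to 55.5) in control_4d and 65.9 CPM (62.7 to 69.2) in RA_4d, then 52.6 CPM (49.8 to 55.4) in control_7d and 49.7 CPM (46.4 to 53.2) in RA_7d, with RA_4d alone above the rest and a ratio of 1.24 (1.16 to 1.32) at 4 dpf and 0.946 (0.866 to 1.03) at 7 dpf. *Pycard* was lower in RA by a small amount at both times, with ratios of 0.929 (0.894 to 0.965) and 0.93 (0.886 to 0.976). *Casp1*, *Casp4* and *Gsdmd* had intervals that held 1 at both times, from 1.01 (0.914 to 1.13) for *Casp1* to 1.12 (0.996 to 1.25) for *Gsdmd* at 7 dpf. *Tlr2* had 0.956 (0.916 to 0.997) and 0.978 (0.931 to 1.03), and *Tlr4* 1.01 (0.941 to 1.07) and 1.11 (1.02 to 1.21). Neutrophil genes differed between the libraries of these cells too. All 5 measured (*S100a8*, *S100a9*, *Camp*, *Ngp* and *Ltf*) were highest in RA_4d and lowest in control_4d, with *S100a8* at 65.3 CPM in control_4d and 574 in RA_4d, then 389 in control_7d and 156 in RA_7d. Their part in the ratios was not tested.

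Within the monocyte and macrophage cells the clusters differed. *Cd14* at 7 dpf had a ratio of 1.46 (1.38 to 1.55) in the macrophage-like cluster led by *Ms4a7* and *Apoe*, 1.18 (1.11 to 1.25) in the one led by *Mmp12* and *Arg1* and 1.11 (1.03 to 1.19) in the one led by *Ccl8* and *Cbr2*. The direction was the same in all 3. In monocyte-like cells *Nlrp3* was at 102 CPM in control_4d and 91.7 in RA_4d, then 71.6 in control_7d and 112 in RA_7d, which is a ratio of 1.56 (1.32 to 1.84) at 7 dpf, but control_4d was nearly as high as RA_7d. *Tlr2* in monocyte-like cells was at 136 CPM in control_4d and 198 in RA_4d, then 175 in control_7d and 178 in RA_7d, lowest in control_4d, with a ratio of 1.45 (1.3 to 1.63) at 4 dpf and 1.02 (0.903 to 1.14) at 7 dpf. In the *Mmp12* and *Arg1* cluster, *Gsdmd* was at 23.1 CPM in control_4d and 27 in RA_4d, then 21.7 in control_7d and 34 in RA_7d, highest in RA_7d, a ratio of 1.57 (1.22 to 2.01) at 7 dpf. These clusters and classes were singled out after their values were seen.

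In mesenchymal cells at 4 dpf no gene of the 9 reached 1.5-fold, and at 7 dpf *Tlr2*, *Tlr4*, *Casp1* and *Casp4* were higher in RA by more than 1.5-fold and none lower. Among all genes tested in mesenchymal cells, 4.18% were called higher and 2.58% lower at 4 dpf, and 4.54% higher and 4.48% lower at 7 dpf. The median log2 ratio of the 9 genes was -0.22 at 4 dpf, beside 0.04 for all genes, and 0.48 at 7 dpf, beside -0.03 for all genes. The 7 dpf call of 4 genes was 1 gene (*Tlr4*) with a looser cell filter, 1 gene (*Casp1*) with the 4 classes weighted equally, and 0 with a pseudocount of 10 CPM.

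Both receptors had the same order of libraries in mesenchymal cells. *Tlr2* was at 12.6 CPM (11.3 to 13.9) in control_4d and 10.7 CPM (9.43 to 12.1) in RA_4d, then 8.56 CPM (7.93 to 9.22) in control_7d and 13.4 CPM (12.7 to 14.1) in RA_7d, with control_7d lowest and RA_7d and control_4d overlapping at the top. Its ratio in RA over control was 0.851 (0.724 to 1) at 4 dpf and 1.57 (1.43 to 1.72) at 7 dpf. *Tlr4* was at 30.1 CPM (28.2 to 32.1) in control_4d and 24.9 CPM (22.9 to 27) in RA_4d, then 20.05 CPM (19.1 to 21) in control_7d and 31.6 CPM (30.6 to 32.7) in RA_7d, and again control_7d was the low library while RA_7d was near control_4d. Its ratio was 0.827 (0.745 to 0.918) at 4 dpf and 1.58 (1.49 to 1.68) at 7 dpf. *Myd88*, downstream of both, was at 30.5 CPM in control_4d and 29.6 in RA_4d, then 25 in control_7d and 23.1 in RA_7d, lower at 7 than at 4 dpf in either condition, with a ratio of 0.923 (0.869 to 0.98) at 7 dpf. *Cd14* was at 7.55 CPM in control_4d and 5.31 in RA_4d, then 8.86 in control_7d and 9.77 in RA_7d. *Nlrp3* was at 1.06 CPM in control_4d and 0.753 in RA_4d, then 1.63 in control_7d and 1.24 in RA_7d, and both genes were near the free RNA reference.

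*Casp1*, *Casp4*, *Pycard* and *Gsdmd* shared that low library in mesenchymal cells. *Casp1* was at 5.06 CPM (4.29 to 5.93) in control_4d and 5.56 CPM (4.66 to 6.59) in RA_4d, then 3.93 CPM (3.51 to 4.38) in control_7d and 6.85 CPM (6.36 to 7.38) in RA_7d, lowest in control_7d and highest in RA_7d. Its ratio was 1.1 (0.864 to 1.39) at 4 dpf and 1.74 (1.53 to 2) at 7 dpf, the largest of the 9 genes at that time. *Casp4* was at 19.5 CPM (17.9 to 21.1) in control_4d and 25.6 CPM (23.6 to 27.7) in RA_4d, then 13.6 CPM (12.8 to 14.4) in control_7d and 20.9 CPM (19.98 to 21.8) in RA_7d, and it was the 1 gene of the 9 with RA above control beyond counting error at both times, at 1.32 (1.17 to 1.48) and 1.54 (1.43 to 1.66). Its log2 ratio at 7 dpf, 0.59, lay just inside the rule, as did that of *Tlr2* (0.59). *Pycard* was at 40.8 CPM in control_4d and 34.6 in RA_4d, then 30.2 in control_7d and 42.4 in RA_7d and stayed just outside it, with a ratio of 1.4 (1.34 to 1.48) and a log2 ratio of 0.48 at 7 dpf. *Gsdmd* was at 15.2 CPM in control_4d and 12.8 in RA_4d, then 9.51 in control_7d and 12.4 in RA_7d, lowest in control_7d and highest in control_4d, with 0.847 (0.73 to 0.981) at 4 dpf and 1.31 (1.2 to 1.43) at 7 dpf.

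**Figure D3:**
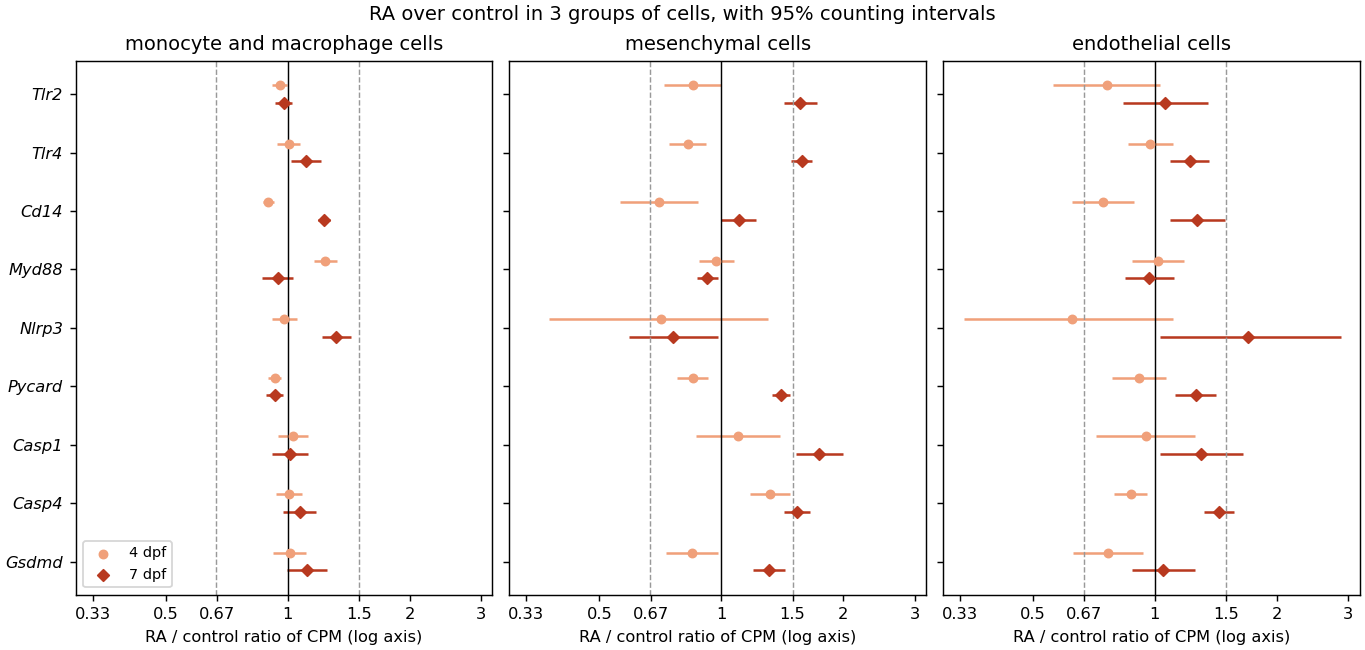
Ratio of RA to control CPM for the 9 genes in monocyte and macrophage, mesenchymal and endothelial cells, on a log axis, with 95% counting intervals (circles 4 dpf, diamonds 7 dpf). Dashed lines mark 1.5-fold either way; in mesenchymal cells *Tlr2*, *Tlr4*, *Casp1* and *Casp4* lie past the upper line at 7 dpf, and in the left panel no gene does. The CPM ratio of *Nlrp3* in endothelial cells lies past the line but was not called, since the rule adds 1 CPM to each level.

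The mesenchymal group mixes 4 classes, and their shares of it differed between the libraries. Osteochondral-like cells, with the lowest *Tlr4* and *Pycard* of the 4 classes, made up 30.6%, 47.1%, 39.7% and 27.7% of mesenchymal cells in control_4d, control_7d, RA_4d and RA_7d. Within classes at 7 dpf, *Tlr4* was above 1 in all 4, with 1.26 (1.14 to 1.4) in fibroblast-like, 1.42 (1.27 to 1.59) in fibroblast precursor-like, 1.66 (1.48 to 1.86) in osteochondral-like and 1.13 (0.874 to 1.46) in tenocyte-like cells, the last with an interval that held 1. The *Tlr2* ratio was largest in fibroblast precursor-like cells, where the gene was at 15.6 CPM in control_4d and 12.9 in RA_4d, then 9.67 in control_7d and 17.8 in RA_7d, a ratio of 1.84 (1.54 to 2.2) at 7 dpf. It was 1.25 (1.04 to 1.5) in fibroblast-like, 1.44 (1.21 to 1.72) in osteochondral-like and 0.91 (0.70 to 1.19) in tenocyte-like cells. The tenocyte-like cells, which had the most *Tlr2* of the 4 classes, had an interval that held 1.

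*Casp1* had similar ratios in the 3 larger classes at 7 dpf, 1.51 (1.18 to 1.94) in fibroblast-like, 1.84 (1.43 to 2.39) in fibroblast precursor-like and 1.51 (1.2 to 1.9) in osteochondral-like cells, and too few UMIs in tenocyte-like cells. *Casp4* did not. In osteochondral-like cells it was at 14.2 CPM in control_4d and 18 in RA_4d, then 10.2 in control_7d and 17.8 in RA_7d, higher in RA at both times, with ratios of 1.27 (1.02 to 1.58) and 1.75 (1.54 to 1.99). In fibroblast-like cells it was at 26 CPM in control_4d and 42.2 in RA_4d, then 19.8 in control_7d and 29.6 in RA_7d, with RA above control at both times by 1.62 (1.35 to 1.96) and 1.5 (1.32 to 1.7). In fibroblast precursor-like cells the ratios were 1.05 (0.839 to 1.3) and 1.1 (0.957 to 1.27), and both intervals held 1. *Pycard* differed most in osteochondral-like cells, at 21.8 CPM in control_4d and 22.6 in RA_4d, then 23.3 in control_7d and 37.2 in RA_7d, where RA_7d stood above 3 libraries that were close together, a ratio of 1.6 (1.47 to 1.74) at 7 dpf, against 1.15 (1.05 to 1.26) in fibroblast-like cells. The osteochondral-like class had 2 clusters, and in the 1 led by *Ibsp* and *Col2a1*, genes of bone and cartilage matrix, the 7 dpf ratios were 1.7 (1.51 to 1.92) for *Tlr4*, 1.63 (1.49 to 1.79) for *Pycard* and 1.76 (1.54 to 2.02) for *Casp4*. The other cluster was led by cell-cycle genes, and *Casp4* was at 1.71 (1.17 to 2.51) there.

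**Figure D4:**
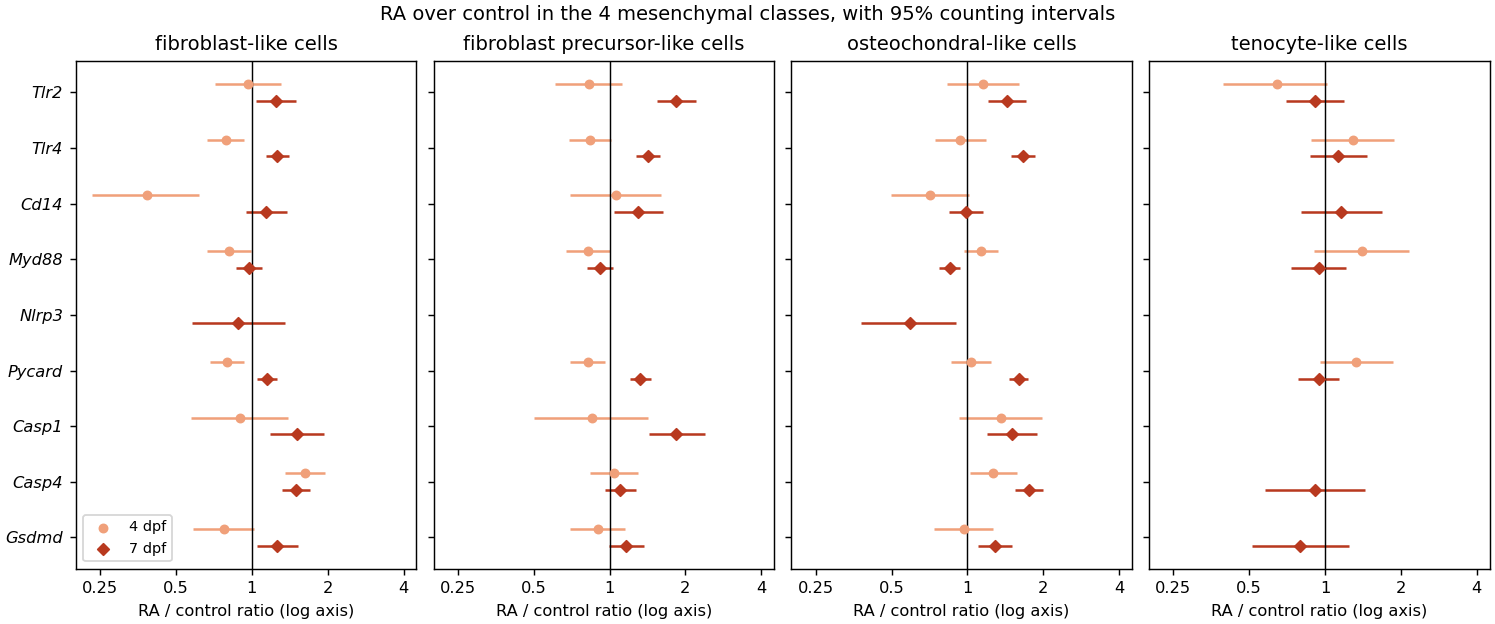
Ratio of RA to control CPM in the 4 mesenchymal classes at 4 dpf (circles) and 7 dpf (diamonds), on a log axis, with 95% counting intervals; genes with fewer than 50 UMIs in both libraries together are not drawn. *Tlr4*, *Casp1* and *Pycard* lie right of 1 at 7 dpf in the first 3 panels, and in tenocyte-like cells every interval drawn at 7 dpf holds 1.

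Markers of other cells differed between the libraries of mesenchymal cells too. Cells called doublets were 1.21%, 3.38%, 1.35% and 3.55% of mesenchymal cells in control_4d, control_7d, RA_4d and RA_7d. In RA_7d they held 60.1% of the mesenchymal *Cd14* UMIs and 59.8% of the *Nlrp3* UMIs, but 16.4% of *Tlr2* and 5.72% of *Tlr4* UMIs. Without them the *Cd14* ratio at 7 dpf was 0.654 (0.571 to 0.748) in place of 1.1, which turns its direction. The ratios of the 4 called genes were as large without doublets, 1.68 (1.52 to 1.86) for *Tlr2*, 1.58 (1.49 to 1.69) for *Tlr4*, 1.76 (1.53 to 2.04) for *Casp1* and 1.55 (1.43 to 1.67) for *Casp4*. The median of the free RNA reference was 2.08% in control_7d and 1.58% in RA_7d. *S100a8* in mesenchymal cells was at 7.02 CPM in control_4d and 65.7 in RA_4d, then 30.2 in control_7d and 5.51 in RA_7d, and all 5 neutrophil genes were lower in RA_7d than in control_7d. The part of free RNA and of neutrophil RNA in the ratios was not tested.

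Set against time in each condition, *Tlr2*, *Tlr4*, *Pycard* and *Casp1* in mesenchymal cells were lower at 7 than at 4 dpf in control and higher in RA. *Tlr2* had a ratio of 7 to 4 dpf of 0.681 (0.60 to 0.773) in control and 1.25 (1.09 to 1.44) in RA. *Tlr4* had 0.666 (0.614 to 0.723) and 1.27 (1.16 to 1.39), *Pycard* 0.74 (0.691 to 0.793) and 1.22 (1.14 to 1.32), and *Casp1* 0.776 (0.638 to 0.947) and 1.23 (1.02 to 1.49). *Casp4* was lower at 7 dpf in both, at 0.697 (0.63 to 0.772) and 0.814 (0.743 to 0.891), as was *Myd88*, at 0.82 (0.758 to 0.887) and 0.779 (0.716 to 0.848). *Gsdmd* was lower in control, at 0.627 (0.558 to 0.706), and its interval held 1 in RA, at 0.969 (0.855 to 1.1). *Cd14* and *Nlrp3*, near the free RNA reference, were higher at 7 dpf by their CPM in both. Without cells called doublets *Cd14* was lower at 7 dpf in both, at 7 CPM in control_4d and 6.23 in control_7d, then 4.62 in RA_4d and 4.07 in RA_7d. *Nlrp3* was then higher in control, at 0.804 and 0.934 CPM, and lower in RA, at 0.593 and 0.52 CPM. In monocyte and macrophage cells *Cd14* was higher at 7 dpf in both, by 1.1 (1.07 to 1.13) in control and 1.51 (1.46 to 1.56) in RA, and *Nlrp3* had 0.962 (0.897 to 1.03) and 1.29 (1.19 to 1.4). The difference between the conditions in these ratios was not tested, and they use the same 4 libraries as the ratios of RA to control.

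In endothelial cells none of the 9 was called higher or lower at either time, beside 2.12% higher and 2.16% lower among all genes at 4 dpf and 4.55% higher and 4.32% lower at 7 dpf. The median log2 ratio of the 9 was -0.20 at 4 dpf and 0.32 at 7 dpf, against 0.01 for all genes at both. Markers of other cells differed too. At 4 dpf all 5 neutrophil genes were higher in RA_4d than in control_4d, with *S100a8* at 7.96 CPM in control_4d and 65.7 in RA_4d, then 11.9 in control_7d and 5.99 in RA_7d, and *C1qa* was at 3.42% of its monocyte and macrophage CPM in control_4d and 1.12% in RA_4d. Doublets were 4.56% and 3.86% of endothelial cells at 4 dpf. Without them the 4 dpf ratios were 0.982 (0.673 to 1.42) for *Tlr2* in place of 0.761, 0.939 (0.754 to 1.17) for *Cd14* in place of 0.745 and 1.62 (0.72 to 3.7) for *Nlrp3* in place of 0.624, which turns the direction of *Nlrp3*. The part of the other cells in the ratios was not tested. *Casp4* was at 81.4 CPM (76.8 to 86.1) in control_4d and 70.9 CPM (65.9 to 76.3) in RA_4d, then 63.1 CPM (59 to 67.5) in control_7d and 90.9 CPM (86.5 to 95.4) in RA_7d, with control_7d lowest and RA_7d highest, and its ratio was 0.872 (0.794 to 0.957) at 4 dpf and 1.44 (1.32 to 1.56) at 7 dpf. In the cluster led by *Selp* and *Lrg1* the 7 dpf ratio was 1.35 (1.21 to 1.5), and in the capillary cluster led by *Gpihbp1* and *Cldn5* it was 1.06 (0.914 to 1.24). The mix of clusters differed between the libraries. The *Selp* and *Lrg1* cluster, with more *Casp4*, held 319 of 658 endothelial cells in control_4d and 241 of 466 in RA_4d. At 7 dpf it held 370 of 863 in control_7d and 652 of 1145 in RA_7d. The part of this mix in the endothelial ratio was not tested. *Tlr4* was at 41.4 CPM in control_4d and 40.4 in RA_4d, then 38.2 in control_7d and 46.5 in RA_7d, a ratio of 1.22 (1.09 to 1.36) at 7 dpf. *Pycard* was at 30.05 CPM in control_4d and 27.4 in RA_4d, then 33.8 in control_7d and 42.5 in RA_7d, a ratio of 1.26 (1.12 to 1.42). Both had RA_7d as the highest library. *Nlrp3* had the widest interval, 1.7 (1.03 to 2.88), from 24 and 53 UMIs, and 71.7% of the latter lay in cells called doublets. With 1 CPM added to each level its log2 ratio was 0.53, just outside the rule. *Cd14* was at 25.7 CPM in control_4d and 19.1 in RA_4d, then 19.2 in control_7d and 24.4 in RA_7d with a 7 dpf ratio of 1.27 (1.09 to 1.49), and without doublets 1.13 (0.923 to 1.38), an interval that holds 1.

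In the smaller blood-derived classes some ratios of the receptors and the sensor lay farther from 1, on few cells. The classes and genes of this and the next paragraph were singled out after their values were seen. The share of all genes past 1.5-fold was not computed in these classes, so the ratios cannot be set beside it. Neutrophil-like cells (68, 96, 252 and 54 in control_4d, control_7d, RA_4d and RA_7d) had *Tlr2* at 87.1 CPM in control_4d and 44.5 in RA_4d, then 82.6 in control_7d and 47.5 in RA_7d, lower in RA at both times, with ratios of 0.511 (0.42 to 0.625) and 0.575 (0.418 to 0.781). *Cd14* was at 191 CPM in control_4d and 122 in RA_4d, then 182 in control_7d and 113 in RA_7d, with ratios of 0.641 (0.564 to 0.729) and 0.621 (0.507 to 0.758). *Pycard* was at 234 CPM in control_4d and 145 in RA_4d, then 194 in control_7d and 129.9 in RA_7d, with 0.622 (0.554 to 0.699) and 0.669 (0.552 to 0.807). *Nlrp3* differed at 4 dpf (0.315, 0.252 to 0.396) and had an interval that held 1 at 7 dpf (1.14, 0.807 to 1.59). This class was led by *Camp*, *S100a9* and *Ngp* but also by *Elane*, *Prtn3* and *Ctsg*, granule genes of immature cells, and the filter at 4000 UMIs removes cells with little RNA, as mature neutrophils are. Dendritic-like cells had less *Cd14* in RA at both times, at 107 CPM in control_4d and 73.5 in RA_4d, then 126 in control_7d and 73.5 in RA_7d, with ratios of 0.689 (0.589 to 0.804) and 0.582 (0.47 to 0.718).

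Osteoclast-like cells (313, 182, 292 and 27) had opposite directions at the 2 times for *Tlr2*, *Cd14* and *Nlrp3*. At 4 dpf RA was below control for *Tlr2* (0.498, 0.42 to 0.588), *Tlr4* (0.50, 0.388 to 0.64), *Cd14* (0.352, 0.304 to 0.405), *Nlrp3* (0.436, 0.316 to 0.595) and *Pycard* (0.701, 0.654 to 0.752), and above it for *Gsdmd* (1.29, 1.13 to 1.47). At 7 dpf RA was above control for *Tlr2* (3.87, 2.77 to 5.34), *Cd14* (3.18, 2.37 to 4.23) and *Nlrp3* (3.19, 1.81 to 5.41). The 7 dpf values rest on 56, 67 and 20 UMIs from the 27 cells of RA_7d. Their median depth was 18835 UMIs, against 24974 in control_7d. After thinning, *Tlr2* was seen in 44.4% of them, in 14.3% of osteoclast-like cells of control_7d and in 38.3% of macrophage-like cells of RA_7d. Whether the make-up of the class differed between the libraries was not tested. In Schwann-like cells *Casp4* was at 21.9 CPM in control_4d and 11.8 in RA_4d, then 15.8 in control_7d and 41.7 in RA_7d. These came from 11, 3, 15 and 105 UMIs in the same order, with a 7 dpf ratio of 2.64 (1.53 to 4.89). Muscle-like cells had *Tlr4* at 9.7 CPM in control_4d and 20.3 in RA_4d, then 16.8 in control_7d and 25.8 in RA_7d, higher in RA at both times, with ratios of 2.09 (1.37 to 3.19) and 1.53 (1.13 to 2.08).

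The classes took different shares of the libraries, and over all cells of a library the ratios of several genes lay on the other side of 1. Monocyte and macrophage cells were 47.6%, 29.1%, 39.9% and 16.8% of the cells of control_4d, control_7d, RA_4d and RA_7d, and mesenchymal cells 18.2%, 42%, 19.8% and 49.98%. The number of cells loaded was set by the experimenters and the filter at 4000 UMIs drops small cells, so these are not cell numbers of a callus. *Cd14* was 76.1 CPM in control_7d and 56.3 in RA_7d, a ratio of 0.74 (0.72 to 0.761), and with the RA class levels weighted by the control library's classes the ratio was 1.21. *Nlrp3* had 0.784 (0.732 to 0.84) over all cells and 1.3 at the control mix, *Tlr2* 0.728 (0.699 to 0.758) and 1.08, and *Casp1* 0.929 (0.867 to 0.996) and 1.15. *Pycard* had 0.881 (0.855 to 0.907) and 1.05, and *Gsdmd* 0.959 (0.904 to 1.02) and 1.07. *Tlr4*, *Casp4* and *Myd88* kept their direction, with 1.25 (1.2 to 1.3) and 1.27 for *Tlr4* and 1.27 (1.22 to 1.33) and 1.32 for *Casp4*. For *Myd88* the values were 0.872 (0.836 to 0.91) and 0.939. At 4 dpf the ratios at the control mix ranged from 0.814 for *Cd14* to 1.13 for *Myd88*.

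The cells that held most of a gene's UMIs differed by library. In control_4d, monocyte and macrophage cells held 54.1% and mesenchymal cells 21.4% of the *Tlr4* UMIs, and in RA_7d 17.9% and 60.4%. The UMIs of all genes were also spread differently. Of 108438906 UMIs in control_4d, monocyte and macrophage cells held 38573779 and mesenchymal cells 30213380. Of 156567619 in RA_7d they held 16431930 and 102284377. The part of this make-up in the shares of single genes was not tested. For *Casp1* the mesenchymal part was 7.3% in control_4d and 8.5% in RA_4d, then 19.6% in control_7d and 42.1% in RA_7d. *Casp4* in RA_7d came for 42.5% from mesenchymal, 32.3% from endothelial and 15.4% from monocyte and macrophage cells. *Cd14* stayed with the monocyte and macrophage cells in every library, at 77.7% to 83.5%, and so did *Nlrp3*, at 70.1% to 73.2%.

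**Figure D5:**
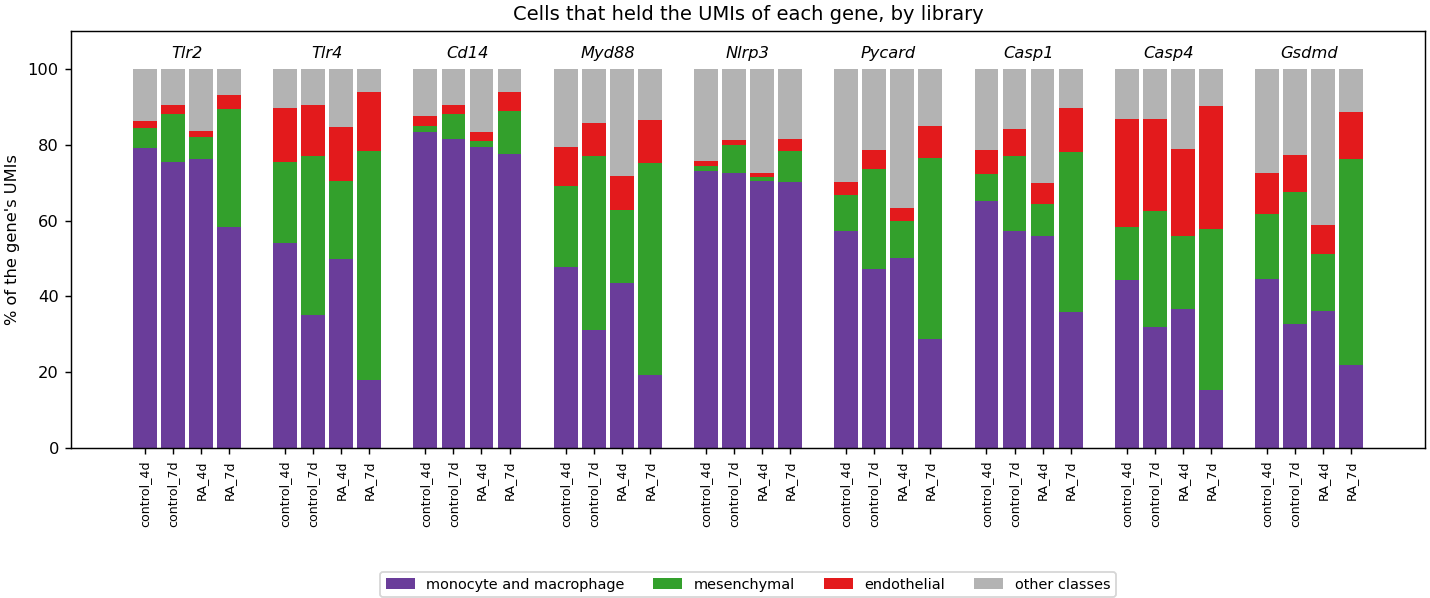
Share of each gene's UMIs, in percent, that lay in monocyte and macrophage, mesenchymal, endothelial and all other cells, with 1 stacked bar per library that adds up to 100%. The mesenchymal part (green) is largest in RA_7d for all 9 genes, and the monocyte and macrophage part (purple) is above 70% in every library only for *Cd14* and *Nlrp3*. Mesenchymal cells also held 102284377 of the 156567619 UMIs of all genes in RA_7d.

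The wider list of 51 pathway genes was set beside the 9, in 5 groups (12 Toll-like receptors and co-receptors, 10 adaptors and kinases, 17 cytosolic sensors, 8 caspases, gasdermins and membrane rupture genes, and 4 products). In monocyte and macrophage cells 0 of 47 with enough UMIs were higher and 2 lower at 4 dpf, and 1 of 44 was higher and 0 lower at 7 dpf. In mesenchymal cells 1 of 31 was higher and 3 lower at 4 dpf, and 3 of 41 higher and 0 lower at 7 dpf, and in endothelial cells 0 of 32 and 3 at 4 dpf, and 4 of 33 and 1 at 7 dpf. The shares among all genes are those given above. The median log2 ratio of the list at 7 dpf in mesenchymal cells was 0.01, against -0.03 for all genes and 0.48 for the 9. No gene of the list was past 1.5-fold in 1 direction at both times.

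The 3 mesenchymal genes of the list that were higher in RA at 7 dpf, named after their values were seen, were *Lbp*, *Irak3* and *Nod1*. *Lbp*, whose product carries lipopolysaccharide to CD14, was at 289.7 CPM in control_4d and 189 in RA_4d, then 63.8 in control_7d and 156 in RA_7d, a ratio of 0.652 (0.629 to 0.676) at 4 dpf and 2.45 (2.37 to 2.53) at 7 dpf. *Irak3*, an inhibitor of signalling below MYD88, was at 64.8 CPM in control_4d and 52.5 in RA_4d, then 29.2 in control_7d and 62.4 in RA_7d, with 2.14 (2.04 to 2.24) at 7 dpf. *Nod1*, a sensor of peptidoglycan, was at 19.8 CPM in control_4d and 21.2 in RA_4d, then 9.68 in control_7d and 16.6 in RA_7d, with 1.71 (1.57 to 1.86). All 3 were lowest in control_7d, the library in which *Tlr2*, *Tlr4*, *Pycard* and *Casp1* were lowest too. *Lbp* and *Nod1* were also higher in RA in endothelial cells at 7 dpf, *Lbp* at 67.5 CPM in control_4d and 71.5 in RA_4d, then 30.3 in control_7d and 96.2 in RA_7d, a ratio of 3.17 (2.85 to 3.54), and *Nod1* by 1.57 (1.41 to 1.75).

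The cytokines that caspase-1 matures did not reach 1.5-fold in monocyte and macrophage cells. *Il1b* there was at 91.2 CPM in control_4d and 94.8 in RA_4d, then 125 in control_7d and 128 in RA_7d, higher at 7 than at 4 dpf in either condition. *Il18* was at 47.9 CPM in control_4d and 44 in RA_4d, then 40.9 in control_7d and 40.8 in RA_7d. In the other groups of cells some calls were made. *Il18* was called lower in mesenchymal cells at 4 dpf, with 0.585 (0.506 to 0.675), and had 1.43 (1.31 to 1.55) at 7 dpf. *Il1b* in endothelial cells was called lower at 4 dpf, with 0.589 (0.434 to 0.791), and higher at 7 dpf, with 1.86 (1.4 to 2.49), from 65 to 169 UMIs per library. It was at 10.8 CPM in control_4d and 6.34 in RA_4d, then 5.09 in control_7d and 9.45 in RA_7d. These levels are low beside those of monocyte and macrophage cells. *Ly86* and *Il1rn*, named after their values were seen, were also called lower in endothelial cells at 4 dpf. In mesenchymal cells at 4 dpf *Il1rn* was called higher in RA, with 3.55 (2.65 to 4.81), from 177 UMIs in RA_4d and 63 in control_4d. In monocyte and macrophage cells *Il1rn* had 1.06 (1.01 to 1.12) at 4 dpf and 1.47 (1.39 to 1.57) at 7 dpf, short of the rule. The part of free RNA and of doublets in these ratios was not tested. In monocyte and macrophage cells *Il1a* was at 1.71 CPM in control_4d and 0.75 in RA_4d, then 2.62 in control_7d and 3.04 in RA_7d, from 18 to 68 UMIs, and was 1 of the 2 genes lower in RA at 4 dpf. *Ly96*, which holds lipopolysaccharide on TLR4, was at 39.4 CPM in control_4d and 38.1 in RA_4d, then 44.1 in control_7d and 53.2 in RA_7d, highest in RA_7d, a ratio of 1.21 (1.1 to 1.32). Of the other cytosolic sensors, *Aim2* was at 64.3 CPM in control_4d and 61.7 in RA_4d, then 61.8 in control_7d and 64.4 in RA_7d. *Nlrc4* was at 21.8 CPM in control_4d and 24.6 in RA_4d, then 25.2 in control_7d and 28.1 in RA_7d. Others differed by more at 4 dpf, with ratios of 1.42 (1.29 to 1.55) for *Mefv* and 1.44 (1.29 to 1.61) for *Nod1*, short of the rule, and 0.361 (0.169 to 0.703) for *Nlrp10*, the other gene called lower, from 49 and 11 UMIs. These 3 were named after their values were seen. *Gsdme*, a gasdermin cut by caspase-3, was at 8.71 CPM in control_4d and 9.21 in RA_4d, then 10.2 in control_7d and 8.4 in RA_7d in these cells. In mesenchymal cells it was at 14.8 CPM in control_4d and 13.6 in RA_4d, then 19.6 in control_7d and 17.6 in RA_7d, where both control_7d and RA_7d were above their 4 dpf libraries. In endothelial cells it was at 5.35 CPM in control_4d and 6.05 in RA_4d, then 11.4 in control_7d and 7.05 in RA_7d and was called lower in RA at 7 dpf, with 0.617 (0.484 to 0.785).

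The genes whose pattern over the callus was most like each of the 9 were found by the Pearson correlation of log2(CPM + 1) over 55 sums of class and library (14762 genes, 15 classes). This is a description, since the sums share libraries and classes. *Cd14* was closest to *Cyp4f18* (r = 0.97) and *Cd300lb* (0.96), *Nlrp3* to *Pld4* and *Alox5ap* (both 0.96) after *Gm46224* (0.97), and *Tlr2* to *Lst1* (0.94), *Tifab* and *Man2b1* (both 0.93). *Pycard* was closest to *Adap1* and *Cyba* (both 0.94), *Casp1* to *Tnfrsf1b* (0.90), *Rhog* and *Slc25a45* (both 0.89), *Gsdmd* to *Gpx1* (0.87) and *Fes* (0.86), and *Myd88* to *Ehbp1l1* (0.89). *Casp4* was closest to *Uba7* (0.91), and *Tlr4*, with the lowest best value of the 9, to *Oasl2* (0.75) and *Aldh2* (0.74). Among the 9 themselves, *Cd14* and *Nlrp3* were most alike (0.95), then *Tlr2* and *Cd14* (0.90), whereas *Tlr4* had 0.12 to 0.38 with the other 8.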

How the data were processed

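The authors aligned reads of 10x Chromium Single Cell 3′ v3.1 libraries to mm10 with Cell Ranger 7.0.1 and deposited UMI counts that were not normalized, 1 table of genes by barcodes per library (all whole numbers); whether intronic reads were counted is not given in the sources used here. The study's filter kept 25479 of 34038 barcodes, with median depths of 16090 to 17630 UMIs. Cells were integrated and clustered in Seurat 5.3.0 (R 4.3.3; 2000 variable genes, 15 principal components, 30 integration dimensions, resolution 0.5, chosen to give 20 clusters as in the study). A cluster took the name with the highest mean log2 marker level over all other cells (score at least 1, lead at least 0.35, at least 3 markers detected). These thresholds were set after the clusters were seen, and a further criterion, a marker among the 20 leading genes, was dropped for the macrophage-like *Mmp12* and *Arg1* cluster and the cycling osteochondral-like cluster, which have none. Because names are rebuilt, classes need not match the study's. Doublets (592 cells, 2.32%) were called with Scrublet in scanpy 1.11.5 and kept unless stated.

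UMIs were summed per class and library and given as CPM with exact Poisson intervals, ratios with exact conditional intervals and shares with exact Clopper-Pearson intervals, at 95%, with scipy 1.17.1, pandas 2.3.3 and numpy 2.4.6 under Python 3.11.15. A count of 0 was given the limit of 3 counts. UMIs come from 1 pool per library, so intervals cover counting error only. Classes under 20 cells in a library were given no level. No p-value was computed. The 9 genes and the pathway list were chosen with earlier results of these data known. The named genes are the 9, pathway genes past 1.5-fold one way at both times (none), *Il1b*, *Il18*, *Il1a*, *Ly96*, *Aim2*, *Nlrc4* and *Gsdme*, and the 3 nearest genes by correlation among genes with at least 500 UMIs. Promoters came from RefSeq. The calculation was tested on simulated data. Alternatives were a looser filter (at least 1000 UMIs and 500 genes, at most 15% mitochondrial), no integration, the 9 genes among the variable genes, resolution 1, doublets left out, equal weights for classes, a minimum of 10 UMIs per gene, 10 CPM as pseudocount, TMM factors, cells thinned to 4000 UMIs and a 2-fold limit. The study's other experiments were not analysed here.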

Additional observations from a re-analysis of the deposited data

How the results depend on the processing

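The count of the 9 genes past 1.5-fold in mesenchymal cells at 7 dpf, 4 as reported, was 1 with the looser cell filter, 1 with classes weighted equally, 1 with clusters weighted equally (an alternative chosen after seeing the data), 0 with a pseudocount of 10 CPM and 0 at a limit of 2-fold. With thinned cells it was 1 in place of 0 in mesenchymal (*Casp4*, higher) and in endothelial cells (*Cd14*, lower) at 4 dpf. In endothelial cells at 7 dpf it was 1 in place of 0 (*Nlrp3*) with the pathway genes among the variable genes and at resolution 1. The other counts were within 1.5 times of those reported, 3 or 4 in mesenchymal cells at 7 dpf, and *Tlr2*, *Tlr4*, *Casp1* and *Casp4* there stayed higher in RA under every alternative run. *Casp1* in mesenchymal cells at 7 dpf kept a log2 ratio of 0.28 to 0.72 and *Tlr4* of 0.39 to 0.68. Equal weights could not be formed over classes in endothelial cells, which are 1 class. Of the log2 ratios of the 9 genes, 10 of 36 were marked as moved with classes weighted equally and 11 of 54 with clusters weighted equally. With thinned cells 10 of 54 were so marked, and with the looser filter 7 of 54. The other alternatives marked fewer. Resolution 1 left 2598 cells in unnamed clusters, and the looser filter 1328. The whole callus log2 ratio of *Tlr4* at the control mix at 7 dpf was 0.27 without integration, in place of 0.35. No paired analysis was possible because each condition has 1 library. Scaling moved the median gene by at most 0.07 on the log2 scale. Low counts limit *Nlrp3* outside blood-derived cells and *Casp1* in tenocyte-like cells. Median depth was 21742 UMIs in fibroblast-like and 20265 in tenocyte-like cells, against 12542 in macrophage-like cells.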

Other observations

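Tissue cells outside the compared groups held parts of the machinery in their own proportions. The classes and the cluster of this section were also singled out after their values were seen. Smooth muscle and pericyte-like cells, the contractile cells of vessel walls, had *Myd88* at 40.9 CPM in control_4d and 50.9 in RA_4d, then 37.7 in control_7d and 42.3 in RA_7d, above every other class that is not blood-derived in all libraries summed, together with *Pycard* at 72.6 CPM in control_4d and 46.1 in RA_4d, then 40.2 in control_7d and 49.5 in RA_7d. Control_4d was the high library for *Pycard*, and RA over control gave 0.634 (0.468 to 0.852) at 4 dpf and 1.23 (1.01 to 1.51) at 7 dpf. *Casp1* in the same cells was at 2.23 CPM (1.49 to 3.2) over all libraries. Lymphatic endothelial-like cells had *Casp4* at 53.4 CPM in control_4d and 63.5 in RA_4d, then 49.2 in control_7d and 35.2 in RA_7d beside *Casp1* at 1.1 CPM (0.358 to 2.58) over all libraries.

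T and NK-like cells had *Pycard* at 127 CPM in control_4d and 110.4 in RA_4d, then 190.3 in control_7d and 155 in RA_7d, higher in the 7 dpf library of either condition, with a ratio in RA over control of 0.814 (0.689 to 0.962) at 7 dpf. Of the receptors they had *Tlr2* at 11.8 CPM (9.29 to 14.7) and *Tlr4* at 9.63 CPM (7.4 to 12.3) over all libraries. Macrophage-like cells of the cluster led by *Ms4a7* and *Apoe*, genes of tissue macrophages, had *Myd88* at 52.1 CPM in control_4d and 70.6 in RA_4d, then 51.2 in control_7d and 43.9 in RA_7d, a ratio of 1.36 (1.21 to 1.52) at 4 dpf and 0.857 (0.73 to 1) at 7 dpf.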
